A study of Mus musculus with 4 samples.

Results

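The piRNA loci named for a host gene are stretches of the mouse genome that give rise to PIWI-interacting RNAs and that carry the symbol of an overlapping gene, such as pi-Fth1 and pi-Gm5878. They were taken as all features of the piRNA class whose name starts with "pi-". This gave 245 rows, which are isoforms of 114 loci, among the 461 rows and 214 loci of the whole class. The other 100 loci are named for a chromosome band. Of the 245 rows, 212 were listed in both tables, 6 only in the table of replicate 1 and 27 only in that of replicate 2, and a row missing from a table was given 0 there.

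Small RNA was sequenced from mature sperm of adult C57BL/6 mice, taken from the cauda, the tail part of the epididymis in which sperm are stored. The extra cross (2 mice, labelled as an extra cross to wildtype) was set against the original cross (2 mice), with 1 library per mouse. The study set sperm prone to silencing at LoxP, the recognition sequence of Cre recombinase, beside sperm not prone to it. Which cross was which, the allele with the site and any Cre line are not stated in the labels, and the groups are named here by cross alone. Each replicate number has its own table with 1 library of each cross, and ratios are therefore also given within each table.

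In male germ cells piRNAs are cut from long single-stranded transcripts, loaded onto PIWI proteins and used to silence transposons and some messenger RNAs. Some sources are long non-coding transcripts that lie between genes and are switched on at the pachytene stage of meiosis by the transcription factor A-MYB. Others are ordinary messenger RNAs, whose piRNAs come largely from the part after the stop codon and are made mostly before pachytene. Reads counted at a locus named for a gene can be piRNAs or other fragments of the host transcript. The values used here give no read length and cannot separate them.

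Values are RPM (reads scaled to a common library total by the authors), and 1 read was worth 0.642 and 0.238 RPM in the extra cross and 1.58 and 0.561 RPM in the original cross (replicates 1 and 2). Most isoform rows were not whole multiples of this step. Within 0.02 reads, 41.6% and 29.3% of gene-named rows were whole in the extra cross and 24.7% and 34.7% in the original cross. After the isoforms of a locus were added up, 88.2% and 68.3% of loci were whole in the extra cross and 69.8% and 77.8% in the original cross. These shares are over values above 0 and up to 50 reads. Adding isoforms therefore returned whole reads for most loci, and locus values below are sums over isoforms unless an isoform is named. Only 34 of the 114 loci had a single row, 49 had 2, 23 had 3, and pi-Ip6k1 had 14.

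**Figure D1:**
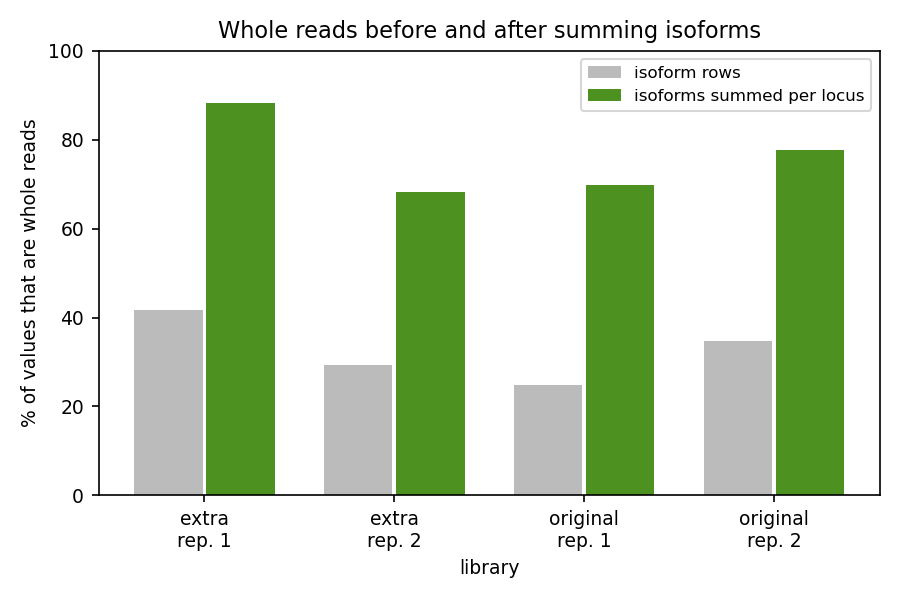
Share of gene-named values that are whole reads within 0.02 reads, in percent, for isoform rows (grey) and for isoforms summed per locus (green) in each library. The green bars, 68.3% to 88.2%, stand above the grey ones, 24.7% to 41.6%, in all 4 libraries.

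As a sum, the gene-named loci held less of the small RNA in the extra cross than in the original cross at the deposited scale. With each RNA class scaled to its own total they held more (log2 ratio 0.48, over loci with a row of at least 10 RPM). Most of the piRNA total comes from the band-named loci, so that this ratio restates the share of the class given below and is not a separate result. The sum of all 245 rows was 536 and 495 RPM in the extra cross, against 1229.6 and 818 RPM in the original cross. Both extra-cross libraries lay below both original-cross libraries, and the 2 original-cross mice differed more from each other than the 2 extra-cross mice did. The sum was 2.29-fold lower in the extra cross of replicate 1 and 1.65-fold lower in that of replicate 2. An exact two-sided permutation test gave p = 0.333, the smallest value that 2 mice against 2 can give. In bulk RNA, fewer cells of a type and less RNA per cell cannot be told apart.

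The sums rest on few reads. They correspond to about 835 and 2081 reads in the extra cross and to about 778 and 1457 reads in the original cross, where 1 read stands for the most RPM in original-cross replicate 1. As a share of the RPM in the 5 small RNA classes (tRNA, miRNA, piRNA, rRNA and repeats) they were 0.0801% and 0.0991% in the extra cross and 0.221% and 0.164% in the original cross. The median locus had 4 and 11 reads in the extra cross and 4.07 and 8 reads in the original cross. A read was seen at 103 and 110 of the 114 loci in the extra cross and at 97 and 111 in the original cross, the fewest in the shallowest library. No single locus carried the difference: without pi-Fth1, pi-Rplp1, pi-Gm5878 and pi-Tmem194 the sum was still 2.10-fold and 1.61-fold lower in the extra cross of replicates 1 and 2.

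Within the piRNA class, however, the gene-named loci made up a larger share in the extra cross. Their share of the class was 13.2% and 13.4% in the extra cross and 7.50% and 9.26% in the original cross, which is 13.3 ± 0.179% and 8.38 ± 1.25% (mean ± SD, n = 2 each). The groups did not overlap, and the exact two-sided permutation test again gave its smallest possible p of 0.333. The band-named loci, which fill the rest of the class, were 4.29-fold lower in the extra cross of replicate 1 and 2.51-fold lower in that of replicate 2, against the 2.29-fold and 1.65-fold of the gene-named loci. With 1 isoform per locus and a mean of at least 10 RPM, the planned form of this comparison, the shares were 6.74% and 6.50% in the extra cross and 4.16% and 4.82% in the original cross, over 11 gene-named and 63 band-named loci.

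**Figure D2:**
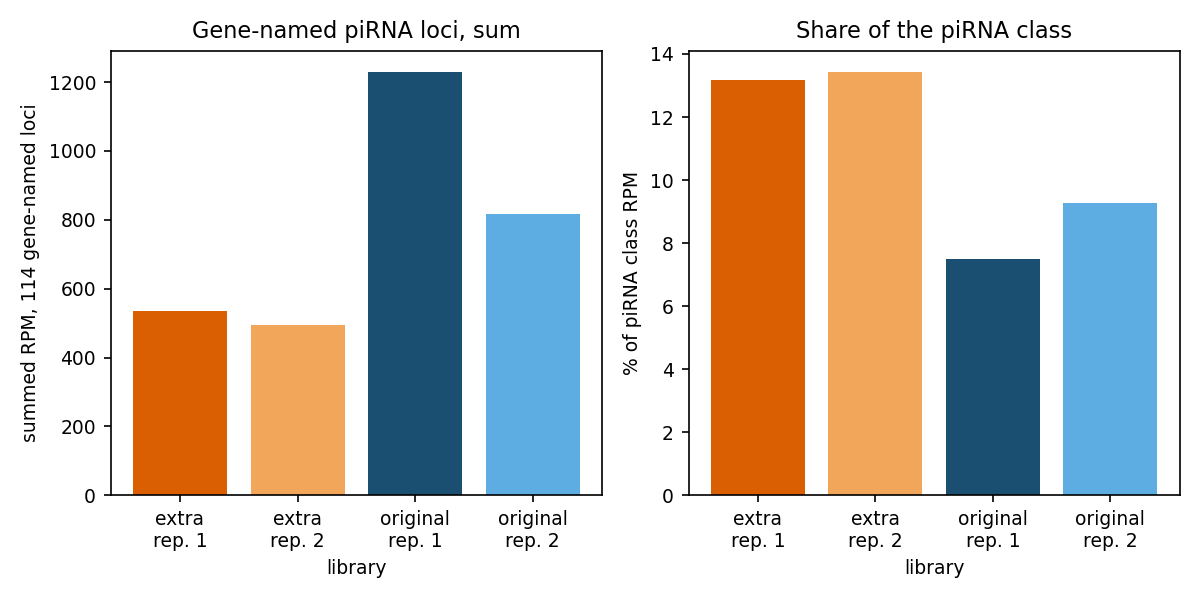
Left, RPM summed over all isoforms of the 114 gene-named loci in each library, and right, the percent of the piRNA class that this sum makes up. The sum is lower in both extra-cross libraries (536 and 495 RPM) than in both original-cross libraries, while the share is higher (13.2% and 13.4%).

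Across the table, 12 gene-named rows of 11 loci reached a mean of 10 RPM over the 4 libraries and entered the limma fit of 760 small RNA features. None of them passed at a Benjamini-Hochberg adjusted p of 0.05, where 0.0% of all features passed, and 6 of the 12 had an unadjusted p below 0.05, as did 112 of the 760 features. That fit had cross as its only term. With a replicate block added, 7 of the 12 rows passed limma, among 171 of the 760 features (22.5%). Same-numbered libraries deviated together (r = 0.87 over 760 features). The labels state no pairing, however, and which model holds cannot be settled with 2 pairs. All 12 were lower in the extra cross in each table, against 46.3% of all features tested, and none was higher in each, against 19.9%. Both extra-cross libraries lay below both original-cross libraries for 11 rows, against 26.8% of all features, and above them for none, against 4.47%. Their median log2 fold change was -1.16 (-1.48 and -0.83 in replicates 1 and 2), beside -0.12 over all features tested and -1.83 over the 109 band-named rows. The direction was not particular to the gene-named rows. Of the 109 band-named rows, 105 were lower in the extra cross in each table and 98 had an unadjusted limma p below 0.05. At 103 of them both extra-cross libraries lay below both original-cross libraries. With each class scaled to its own sum the median of the 12 rows was 0.36, and only 4 of them stayed below 0. Fold changes in the fit are on the log2(RPM + 1) scale and understate those of low loci.

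Counted over whole loci, 21 reached a mean of 10 RPM. Of these 19 were lower in the extra cross in each table, against 44.3% of the 733 features in that fit, and none was higher in each, against 20.6%. Both extra-cross libraries lay below both original-cross libraries at 18 of the 21 loci, against 24.0% of features, and above them at none, against 4.64%. Of the 73 band-named loci at this level, 71 were lower in each table and 68 had their crosses apart in that direction. The limma fit called none of the 21 at an adjusted p of 0.05 (0.0% of all features), and 8 had an unadjusted p below 0.05, as did 80 of the 733 features. Of all 114 loci with no minimum, 70 were lower in each table, against 32.9% of all features, and 8 were higher in each, against 17.7%. The remaining 36 differed in direction between the tables or had no difference in at least 1 of them. The crosses did not overlap at 61 loci lower in the extra cross, against 19.9% of features, and at 6 loci higher in it, against 8.15%. Of all 100 band-named loci, 95 were lower in each table and 90 were lower without overlap. The share of gene-named loci was thus below that of band-named loci. The share of loci lower in both tables was smaller where fewer reads were counted, with 42 of the 61 loci between 2 and 10 RPM and 9 of the 32 below 2 RPM.

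The loci named for a non-coding gene or with a clone-type or model name come first. pi-Gm5878 is named for a long non-coding RNA gene at chr6:85111415-85126094 (GRCm38). It had 14.1 and 16.4 RPM in the extra cross and 75.8 and 48.8 RPM in the original cross. These are 22 and 69 reads in the extra cross and 48 and 87 reads in the original cross. The 95% Poisson intervals, which cover counting error only, ran from 8.85 to 21.4 and from 12.8 to 20.8 RPM in the extra cross and from 55.9 to 101 and from 39.1 to 60.2 RPM in the original cross. The intervals of the extra cross did not meet those of the original cross. The log2 fold change was -1.93 ± 0.44 (SE; limma adjusted p = 0.199), the most negative of the 12 rows tested.

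The other 5 loci of this kind were also lower in the extra cross of each table. pi-1700006A11Rik had 10.9 and 6.18 RPM in the extra cross and 33.2 and 19.1 RPM in the original cross, 3.04-fold and 3.09-fold lower in the extra cross of replicates 1 and 2. pi-D10Wsu102e had 5.30 and 4.54 RPM in the extra cross and 9.31 and 8.27 RPM in the original cross. With pi-BC026590, pi-D730040F13Rik and pi-1700016M24Rik, all 6 loci were lower in each table, with median log2 ratios of -1.45 and -0.91, while 64 of the 108 loci with other host names were, with medians of -0.81 and -0.46. Over all features, with no minimum, 32.9% were lower in each table. Among gene-named loci this share fell with abundance, to 9 of the 32 loci below 2 RPM. The 2 groups of names were not matched for abundance, and the difference between them was not tested.

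Among hosts of nuclear and regulatory proteins, pi-Tmem194 stood near pi-Gm5878. Its host, now called Nemp1, encodes a protein of the inner nuclear membrane and lies at chr10:127677065-127701049. The locus had 16.3 and 15.4 RPM in the extra cross and 104 and 39.6 RPM in the original cross, 6.40-fold and 2.58-fold lower in the extra cross of replicates 1 and 2. The original-cross libraries were both higher but far apart from each other. The isoforms pi-Tmem194.2 and pi-Tmem194.3 had nearly equal values in every library, with log2 fold changes of -1.88 ± 0.60 and -1.89 ± 0.61 (SE; limma adjusted p = 0.244 and 0.248).

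pi-Zfp382, named for a zinc finger repressor gene at chr7:30121833-30140758, had 5.14 and 4.28 RPM in the extra cross and 19.0 and 15.1 RPM in the original cross. The crosses did not overlap, and the difference was similar in the tables, 3.69-fold and 3.54-fold lower in the extra cross of replicates 1 and 2. Its isoform pi-Zfp382.1 had a log2 fold change of -1.65 ± 0.49 (SE; limma adjusted p = 0.210). The locus rests on 8 and 18 reads in the extra cross and on 12 and 27 reads in the original cross.

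Because A-MYB is the known activator of pachytene piRNA sources, the bases before the host genes were searched for the core letters bound by MYB proteins, AACTG, or CAGTT on the other strand. RefSeq windows were found for 85 of the 114 hosts. Of their 104 windows of 250 bases before a gene start, 40 held the motif (38.5%), against 39.1% of all 32851 windows of that length. The longer motif AACNGTT, its own reverse complement, was in 5 of the 104 windows (4.81%), against 3.80% of all windows. Shown here, for a match and for its lack beside a large and a small difference, are windows of 3 hosts with tested loci, from RefSeq (GRCm38.p6), 5′ to 3′ on the gene's strand, with the motif in capitals. The window is whole for Klf13, cut to 151 bases for Zfp382 and to the 30 bases with the match for Nemp1.
Nemp1, host of pi-Tmem194, chr10:127677035-127677064, plus strand: gctgcccgttcggagaCAGTTgctgaggag
Zfp382, chr7:30121682-30121832, plus strand: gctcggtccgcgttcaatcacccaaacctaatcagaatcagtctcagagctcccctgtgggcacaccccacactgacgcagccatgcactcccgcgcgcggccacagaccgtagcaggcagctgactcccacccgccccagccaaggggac
Klf13, chr7:63938916-63939165, minus strand: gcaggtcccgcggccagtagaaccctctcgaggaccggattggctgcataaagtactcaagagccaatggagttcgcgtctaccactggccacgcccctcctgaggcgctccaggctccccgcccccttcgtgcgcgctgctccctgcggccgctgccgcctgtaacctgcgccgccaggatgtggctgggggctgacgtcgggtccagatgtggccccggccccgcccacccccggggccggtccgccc
The match at Nemp1 starts 14 bases before the gene start. The windows of Zfp382 and Klf13 hold no match to the shorter motif, although pi-Zfp382 had a larger difference than pi-Klf13. The window of Zfp652, not shown, holds 2 matches, although pi-Zfp652.2 had the smallest difference of the 12 tested rows (log2 fold change -0.41). A match of 5 letters is a description and not a binding site.

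pi-Eif2c2 is named for the gene of Argonaute 2, the protein that carries microRNAs and siRNAs, now called Ago2 and at chr15:73101625-73184947. It had 9.63 and 12.6 RPM in the extra cross and 33.2 and 23.6 RPM in the original cross, with no overlap between the crosses. The locus was 3.45-fold and 1.87-fold lower in the extra cross of replicates 1 and 2, and its log2 fold change was -1.27 ± 0.45 (SE; limma adjusted p = 0.285).

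The next 3 loci, also named for genes of nuclear proteins, had uneven differences between the tables. pi-Cbx5, named for heterochromatin protein HP1 alpha, had 16.7 and 18.1 RPM in the extra cross and 39.5 and 18.5 RPM in the original cross. The locus was 2.37-fold lower in the extra cross of replicate 1 and near equal in replicate 2. pi-Hjurp, named for the chaperone of the centromeric histone, had 12.2 and 7.85 RPM in the extra cross and 16.1 and 16.8 RPM in the original cross. pi-Dcaf7, whose host encodes a scaffold protein of ubiquitin ligases, had 5.14 and 4.04 RPM in the extra cross and 15.8 and 6.17 RPM in the original cross. In these 3 loci both extra-cross libraries lay below both original-cross libraries, narrowly so for pi-Cbx5.

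Loci of 3 chromatin-modifying genes were looked at after their values were seen, for their hosts' role in DNA and histone methylation. pi-Nsd1, named for a histone H3 lysine methyltransferase, had 10.9 and 9.75 RPM in the extra cross and 17.4 and 16.3 RPM in the original cross. pi-Tet3, named for an oxidase of methylated cytosine, had 5.78 and 6.90 RPM in the extra cross and 14.2 and 7.29 RPM in the original cross. pi-Dnmt3a, named for a de novo DNA methyltransferase, had 1.28 and 2.14 RPM in the extra cross and 3.16 and 7.85 RPM in the original cross, with only 2 reads in each library of replicate 1. The crosses did not overlap at pi-Nsd1, pi-Tet3 or pi-Dnmt3a, narrowly so at pi-Tet3, and nothing is drawn from their shared direction, since other hosts of chromatin proteins differ from it: pi-Cramp1l had 2.57 and 1.66 RPM in the extra cross and 0 and 0.28 RPM in the original cross.

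pi-Cbl, named for an E3 ubiquitin ligase that ends receptor signalling (chr9:44142976-44234259), had 15.6 and 10.5 RPM in the extra cross and 38.2 and 24.8 RPM in the original cross, 2.45-fold and 2.36-fold lower in the extra cross. Its isoform pi-Cbl.1 had a log2 fold change of -1.47 ± 0.50 (SE; limma adjusted p = 0.261). pi-Wdfy3, named for an adaptor of selective autophagy (chr5:101832953-102072215), had 9.63 and 10.7 RPM in the extra cross and 26.9 and 22.4 RPM in the original cross. The isoform pi-Wdfy3.2 was at -1.06 ± 0.46 (SE; limma adjusted p = 0.420).

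pi-Ctdsp2, named for a phosphatase of RNA polymerase II and SMAD proteins (chr10:126978717-126999975), had 15.4 and 15.2 RPM in the extra cross and 30.02 and 21.3 RPM in the original cross. pi-Klf13, named for a Krüppel-like transcription factor (chr7:63886351-63938915), had 7.70 and 7.13 RPM in the extra cross and 14.2 and 11.8 RPM in the original cross. pi-Zfp652, named for a zinc finger repressor (chr11:95749067-95764715), had 16.0 and 15.1 RPM in the extra cross and 22.3 and 23.2 RPM in the original cross. In each of these 3 the crosses did not overlap, although the original-cross replicates of pi-Ctdsp2 lay as far apart as the crosses did in replicate 2. They had log2 fold changes of -0.54 ± 0.43, -0.73 ± 0.47 and -0.41 ± 0.45 for pi-Ctdsp2.1, pi-Klf13.1 and pi-Zfp652.2 (SE; limma adjusted p = 0.995, 0.834 and 0.995).

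The most abundant gene-named locus, pi-Fth1, and the third in the ranking of single rows, pi-Rplp1, carry the names of highly expressed housekeeping genes. Fth1 encodes the heavy chain of the iron store ferritin and lies at chr19:9980600-9985111. pi-Fth1 had 36.6 and 34.2 RPM in the extra cross and 74.3 and 46.6 RPM in the original cross, 2.03-fold and 1.36-fold lower in the extra cross. The crosses did not overlap, and pi-Fth1 had a log2 fold change of -0.72 ± 0.45 (SE; limma adjusted p = 0.826). Rplp1 encodes a protein of the ribosomal stalk and lies at chr9:61913283-61914510. pi-Rplp1 had 30.8 and 15.2 RPM in the extra cross and 56.9 and 17.4 RPM in the original cross. It was the only tested row whose crosses overlapped, since extra-cross replicate 1 lay above original-cross replicate 2, and its log2 fold change was -0.52 ± 0.72 (SE; limma adjusted p = 0.995). Such genes have many processed copies in the genome, and the rule for reads with several matches is not given in the sources used here.

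**Figure D3:**
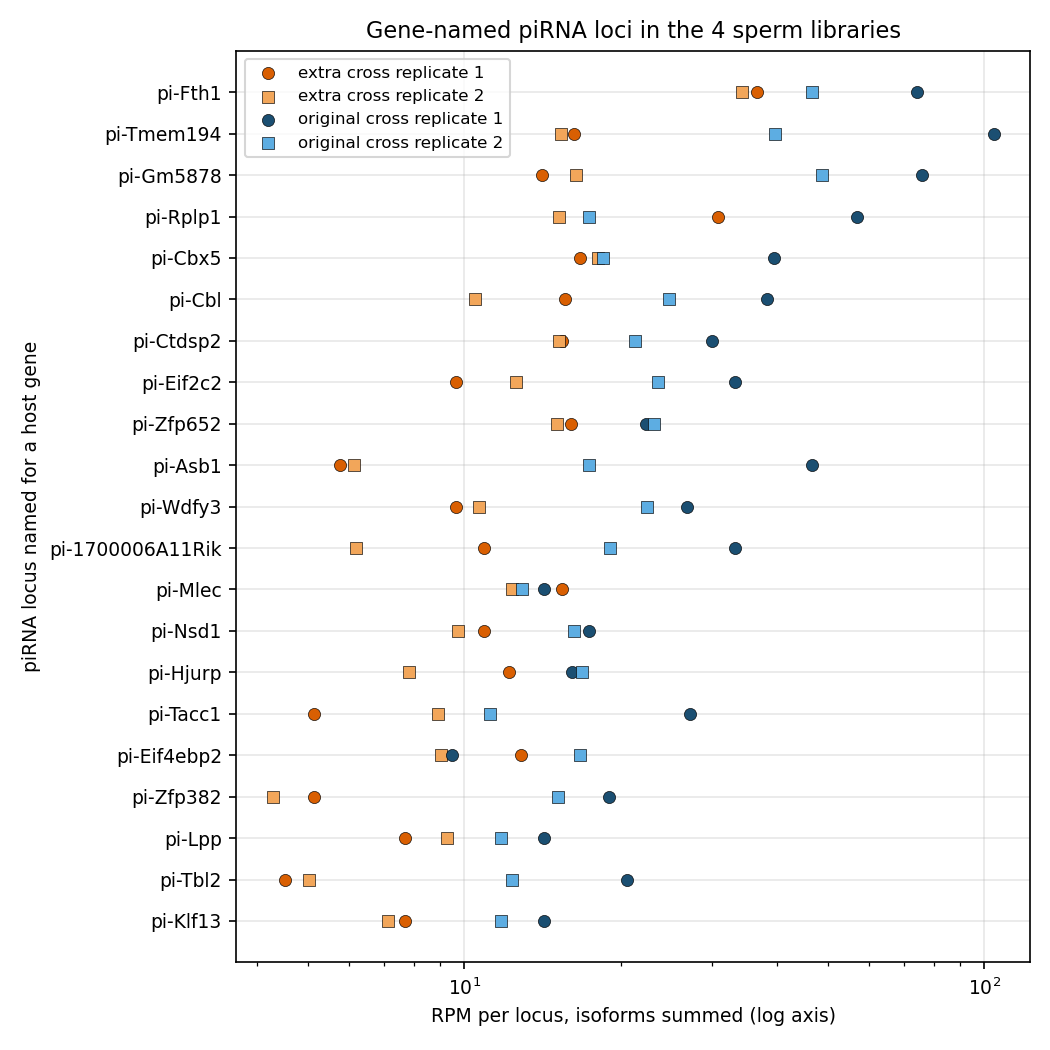
RPM of the 21 gene-named loci that averaged 10 RPM or more, isoforms summed, on a log axis, with 1 point per library (orange, extra cross; blue, original cross; circles, replicate 1; squares, replicate 2). The orange points lie left of the blue ones in most rows, widely apart for pi-Gm5878 and pi-Asb1 and mixed for pi-Mlec, pi-Rplp1 and pi-Eif4ebp2.

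Below the minimum for single rows, the differences ranged from several-fold to none. pi-Asb1, named for a substrate receptor of a ubiquitin ligase, had 5.78 and 6.15 RPM in the extra cross and 46.6 and 17.4 RPM in the original cross, 8.07-fold and 2.83-fold lower in the extra cross. pi-Klhl11, named for a Kelch-like adaptor protein, had 3.21 and 4.04 RPM in the extra cross and 17.4 and 8.98 RPM in the original cross. These loci had both extra-cross libraries below both original-cross libraries, on 5 to 31 reads per library.

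Smaller differences were seen at pi-Nr2c2, named for an orphan nuclear receptor, with 6.42 and 6.66 RPM in the extra cross and 14.2 and 9.54 RPM in the original cross. pi-Lpp, named for a LIM protein of focal adhesions, had 7.70 and 9.27 RPM in the extra cross and 14.2 and 11.8 RPM in the original cross. Both had their crosses apart, by less in replicate 2. pi-Ndst1, named for a heparan sulfate enzyme, had 4.49 and 5.23 RPM in the extra cross and 9.48 and 6.73 RPM in the original cross. pi-Rc3h1, named for the RNA-binding protein roquin-1, had 5.78 and 5.47 RPM in the extra cross and 14.2 and 6.17 RPM in the original cross. These crosses did not overlap either, and the gap was narrow in replicate 2. Named only because their summed isoforms averaged over 10 RPM, pi-Tacc1 had 5.14 and 8.91 RPM in the extra cross and 27.2 and 11.2 RPM in the original cross, and pi-Tbl2 had 4.52 and 5.03 RPM in the extra cross and 20.5 and 12.3 RPM in the original cross, again with no overlap.

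The crosses overlapped at 3 more of the named loci. pi-Mlec, named for malectin, a sugar-binding protein of the endoplasmic reticulum, had 15.4 and 12.4 RPM in the extra cross and 14.2 and 12.9 RPM in the original cross. pi-Eif4ebp2, named for an inhibitor of cap-dependent translation, had 12.8 and 9.04 RPM in the extra cross and 9.48 and 16.7 RPM in the original cross. pi-Elk4, named for an ETS transcription factor, had 12.8 and 9.12 RPM in the extra cross and 4.98 and 11.4 RPM in the original cross. All 3 were higher in the extra cross of replicate 1 and lower in that of replicate 2, by little at pi-Mlec. The value of pi-Elk4 in original-cross replicate 1 stands for about 3.15 reads.

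The 8 loci with more RPM in the extra cross of each table, pi-Ppp1r15b, pi-Atxn1l, pi-Ccrn4l, pi-Abl2, pi-Hinfp, pi-Lsmd1, pi-Cramp1l and pi-Igsf9b, were all below 5 RPM on average. The most abundant of them, named here because of this direction, were pi-Abl2, with 5.84 and 5.06 RPM in the extra cross and 4.74 and 3.37 RPM in the original cross, and pi-Ppp1r15b, with 5.14 and 4.76 RPM in the extra cross and 3.16 and 2.99 RPM in the original cross. Abl2 encodes a tyrosine kinase and Ppp1r15b a subunit that directs the phosphatase of the translation factor eIF2. In original-cross replicate 1 these values are 3 and 2 reads. pi-Hinfp, pi-Lsmd1, pi-Cramp1l and pi-Igsf9b had 0 RPM in that library, where 1 read is 1.58 RPM. pi-Ccrn4l was near equal, with 4.85 and 2.10 RPM in the extra cross and 4.84 and 1.96 RPM in the original cross.

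The loci ranked in part alike in the 2 tables. Over the 82 gene-named loci that averaged 2 RPM or more, the log2 ratio in replicate 1 and that in replicate 2 had a Pearson r of 0.32 and a Spearman rho of 0.34, and over the 21 that averaged 10 RPM or more these were 0.54 and 0.54. These are descriptions across loci, which share their libraries and are not replicates. The gene-named loci were also more spread than the band-named ones in replicate 1. Among loci that averaged 10 RPM or more, the log2 ratios of the 21 gene-named loci ran from -2.81 to 0.40 in replicate 1 (SD 0.85 over loci), against an SD of 0.53 over 73 band-named loci. In replicate 2 they ran from -1.61 to -0.03, with SDs of 0.49 and 0.46. The gene-named loci rest on fewer reads, and the part of counting error in their spread was not tested.

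**Figure D4:**
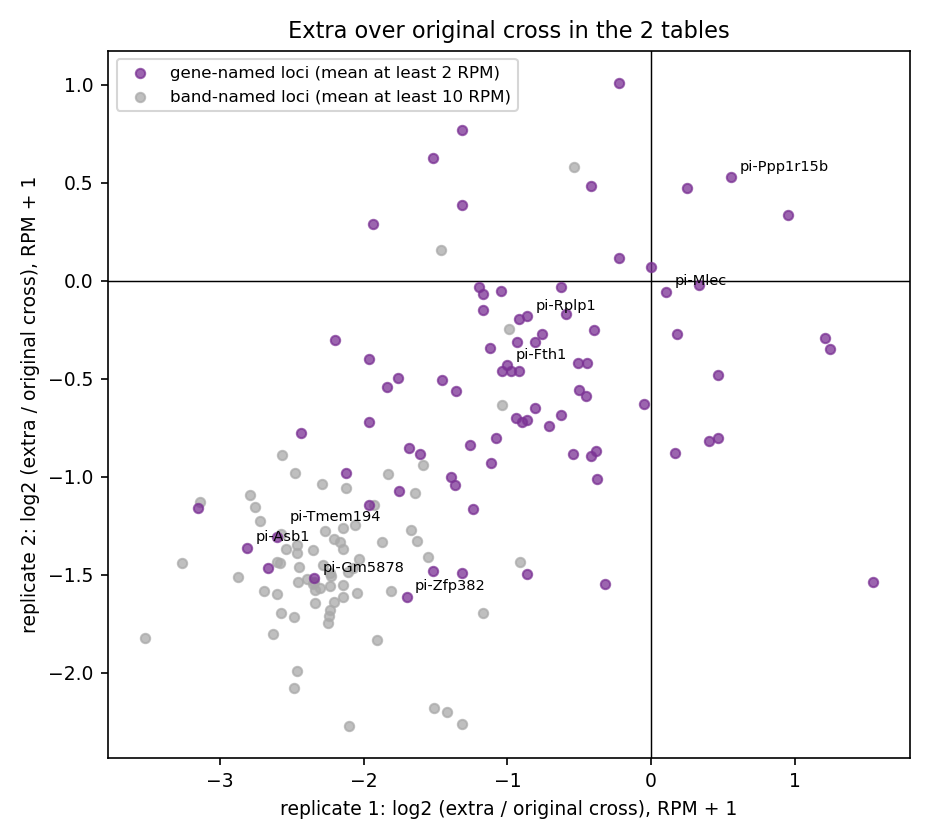
Log2 ratio of extra over original cross in replicate 1 (x axis) and replicate 2 (y axis) for 82 gene-named loci (purple, mean of at least 2 RPM) and 73 band-named loci (grey, mean of at least 10 RPM), with 1 RPM added. Most purple points lie at negative values on both axes; pi-Gm5878, pi-Tmem194, pi-Asb1 and pi-Zfp382 lie among the grey points, and pi-Fth1, pi-Rplp1 and pi-Mlec lie nearer to 0.

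The comparison with the hosts' own transcripts could not be made, because few hosts had a row in the RefSeq class of the tables analysed here. Of 111 protein-coding hosts matched to the RefSeq gene table, 27 had a row (24.3%), against 14382 of all 21900 protein-coding genes (65.7%). None of the hosts of the 11 loci with tested rows had one, Fth1, Rplp1, Ago2 and Cbl included, and the highest value of any host in any library was 3.37 RPM. Whether fragments of host transcripts were counted at the piRNA locus in place of the RefSeq class was not tested. For Fth1, Rplp1, Ago2 and Nemp1, 7 genes of the same complex or family, looked at after the values were seen, did have rows. Ftl1, the light chain of ferritin, had 25.7 and 16.5 RPM in the extra cross and 35.6 and 24.96 RPM in the original cross, and Rplp0, another stalk protein, had 20.5 and 13.0 RPM in the extra cross and 21.3 and 20.01 RPM in the original cross. The other 5 had lower levels. Rplp2 had 2.73 and 3.53 RPM in the extra cross and 3.56 and 3.97 RPM in the original cross, and Ago1 had 2.05 and 2.65 RPM in the extra cross and 2.45 and 2.88 RPM in the original cross. Ago3, Ago4 and Nemp2 were near 1 RPM or below, with Ago3 at 0.53 and 1.15 RPM in the extra cross and 0 and 0.70 RPM in the original cross. In original-cross replicate 1 the RefSeq values are multiplied by 26.2, the ratio between the 1-read steps of the other classes and of RefSeq there. Without this factor Ftl1, Rplp0, Rplp2 and Ago1 would lie below both extra-cross libraries in that library.

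Transcripts of the piRNA pathway itself were close to the limit of detection. Of 26 listed genes 9 had a RefSeq row, and their sum was 4.57 and 2.01 RPM in the extra cross and 3.50 and 4.44 RPM in the original cross. The PIWI gene Piwil2 had 0.43 and 0.16 RPM in the extra cross and 1.05 and 0.37 RPM in the original cross. None reached the minimum of the test.

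Markers of sperm and of other cells in the preparation are given for the same libraries. Transcript values of original-cross replicate 1 are multiplied by 26.2 here too. The 10 transcripts of sperm and spermatids reached 7.77 and 6.29 RPM in the extra cross and 3.16 and 7.33 RPM in the original cross, overlapping. The protamine genes Prm1 and Prm2, which define late spermatids, were at 0 in original-cross replicate 1. The 5 stroma transcripts, all detected, summed to 994 and 1252 RPM in the extra cross and 2471 and 3144 RPM in the original cross. The collagen transcripts Col1a1, Col1a2 and Col3a1 made up most of this sum and were lower in the extra cross without overlap. Acta2 and Myh11 were lower in the extra cross of each table, but their crosses overlapped. For all 5 stroma transcripts the direction in replicate 1 rests on the factor of 26.2. Without it, original-cross replicate 1 would lie below both extra-cross libraries. The 7 microRNAs of smooth muscle and stroma summed to 3424 and 5104 RPM in the extra cross and 8602 and 6294 RPM in the original cross. Among them, mir-143 was higher in the extra cross of replicate 2 (2162 RPM, against 1867 RPM in the original cross). The others were lower in the extra cross of each table, although the crosses overlapped at mir-145a and mir-152. mir-199a-1 and mir-199a-2 had nearly equal values in every library, so that the sum of the 7 may hold the same reads more than once. The 5 microRNAs of epididymal epithelium summed to 10408 and 5315 RPM in the extra cross and 4394 and 2055 RPM in the original cross. Of these 5, mir-200b was slightly lower in the extra cross of replicate 2 (438 RPM, against 448 RPM in the original cross). The rest were higher in the extra cross of each table, although the crosses overlapped at mir-200a, as they did at mir-200b. The 7 transcripts of that epithelium summed to 126 and 139.7 RPM in the extra cross and 40.03 and 122 RPM in the original cross. Of these 7, 6 were higher in the extra cross of replicate 1, and in replicate 2 Crisp1, Lcn5 and Adam7 were higher and Defb20, Lcn8 and Cst11 lower. Blood microRNAs (8) summed to 11186 and 1136 RPM in the extra cross and 6519.6 and 1229 RPM in the original cross. In every library mir-486a equalled mir-486b and mir-142a nearly equalled mir-142b, so that this sum may hold the same reads more than once. mir-451a, mir-144, mir-142a and mir-142b were higher in the extra cross of each table, and mir-150 and mir-223 were lower. mir-486a and mir-486b were higher in the extra cross of replicate 1 and lower in that of replicate 2. The 4 spermatogenic microRNAs summed to 1813 and 1205 RPM in the extra cross and 1923 and 749 RPM in the original cross. No tested member of these lists had a limma adjusted p below 0.05. The part of these cells in the values of the gene-named loci was not tested.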

How the data were processed

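Per the labels' protocols, sperm RNA was isolated with Trizol, a gel slice of small RNA was made into TruSeq libraries, and all 4 were run in 1 lane. Bowtie 1.1.2, CASAVA 1.8.2 and the build mm10 stand in the submitters' processing notes, without a role or order. The deposited values are RPM, scaled by the authors. How reads were trimmed, which annotation gave the loci and how reads with several matches were counted is not given in the sources used. The commonest miRNA value of a column was taken as 1 read, which puts 632859 to 4205692 reads behind the scale.

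The test was planned as limma for normalized values. limma 3.58.1 (R 4.3.3) was fitted with a variance trend to log2(RPM + 1) of 760 features of the 5 small RNA classes with a mean of at least 10 RPM, with cross as the only term, and Benjamini-Hochberg adjustment ran over all of them. An exact permutation test (scipy 1.17.1) was run on the sum and on the share. Alternatives were other pseudocounts, minimums and scalings, a replicate block, 1 isoform per locus and leaving out each library. Summing isoforms was added after the data were seen. Named are the loci with a row of at least 10 RPM, the 15 next in mean, and those whose text says they were added. A locus that this rule names is not reported here. Members, lists and tests were chosen with earlier results of these data known. Host symbols were matched to RefSeq (GRCm38.p6; 112 of 114), and 55925 of 68434 RefSeq transcripts to a gene. Tables were made with Python 3.11.15.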

Additional observations from a re-analysis of the deposited data

How the results depend on the processing

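The median log2 fold change of the tested gene-named rows (-1.16) moved to -0.64 over 105 rows with a minimum of 2 RPM and to -0.42 over all 245 rows. Median-ratio scaling moved the median of all features to 0.33 and scaling to the sum of the 5 classes to -0.25, from -0.12 as deposited. Relative to that median the gene-named median was -1.06 and -1.03, against -1.04. Both scalings use 1 factor per library, which shifts all features nearly alike, so that this difference was bound to stay nearly the same. With each class scaled to its own sum, which divides out a shift of the class, the gene-named median reversed to 0.36 and the log2 ratio of the summed RPM (-1.19) to 0.48. There pi-Cbl.1 (0.060), pi-Ctdsp2.1 (0.998), pi-Eif2c2.1 (0.28), pi-Fth1.1 (0.89), pi-Klf13.1 (0.76), pi-Rplp1.1 (1.06), pi-Wdfy3.2 (0.45) and pi-Zfp652.2 (1.104) turned positive. Under median-ratio scaling pi-Zfp652.2 was at 0.013, and pi-Rplp1.1 was at 0.30 without original-cross replicate 1, within -1.35 to 0.30 over the libraries left out. With 1 library left out, the median ran from -1.43 to -0.98, the log2 ratio of the sum from -1.50 to -0.80, the share difference (2.12 points) from 1.79 to 2.45 points, and no row was called; the lone library of a cross is then assumed to vary like the others. The count of called rows was 0 in every fit but that with a replicate block, where 7 of the 12 rows passed limma, among 171 of 760 features (22.5%). Same-numbered libraries deviated together (r = 0.87 over 760 features), but 2 pairs cannot show pairing and the labels state none. The settings meant for host transcripts were not run, since no host reached the minimum. Original-cross replicate 1, where 1 read is 1.58 RPM, is the shallowest library and limits what can be seen at low loci.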
